A study of Drosophila melanogaster with 2 samples.

Results

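The genes described are 10 Drosophila melanogaster genes of the extracellular matrix, taken by symbol from the Ensembl annotation out of 13968 protein-coding genes. They are the matrix metalloproteinase genes Mmp1 and Mmp2, their inhibitor gene Timp, and 7 basement membrane genes, vkg, Col4a1, LanA, LanB1, LanB2, trol and SPARC. Binding was measured by chromatin immunoprecipitation sequencing of Broad, an ecdysone-induced zinc finger transcription factor. Whole wandering larvae of the third instar, of pooled sexes and unknown age, came from a transgenic line that stably carries br-RJ with GFP at its C-terminus, and chromatin was precipitated through the tag. There is 1 group with 2 biological replicates, and no condition to compare it with. The labels do not say what drives the transgene, and a peak from whole larvae can come from any tissue. Read depth is unknown, since the lists used here hold peaks and no reads.

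Basement membranes are sheets of collagen IV, laminin and perlecan that underlie epithelia and wrap organs such as the fat body and the imaginal discs. Matrix metalloproteinases cut these proteins, and in Drosophila they act in disc eversion and in the break-up of the larval fat body at metamorphosis. Timp proteins bind and block them. The onset of metamorphosis is timed by ecdysone pulses, and Broad is an early factor of that response.

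A summit, the highest point of a peak, was counted for a gene when it lay in the gene or within 5 kb of either end. The main list is the optimal set, labelled as thresholded by the irreproducible discovery rate, a measure of agreement between replicates. Near the 10 genes it held every summit of the pooled list, called on both replicates, with a signal of 81.0 or more. It held none with 79.6 or less. Membership here thus followed the pooled signal and does not show that a given peak agreed between replicates. By the 5 kb rule 17 of its 6635 summits lay near the 10 genes. They fell at 7 of the 10 genes, against 49.9% of all protein-coding genes. Among peaks at or above the median signal of the set it was 3 of 10 (vkg, trol and SPARC), against 35.8%. Timp, Col4a1 and LanB2 had no summit in the set. A summit inside the gene itself was found for 4 of 10 (Mmp1, Mmp2, LanA and trol), against 14.9% of all genes. The median gene length was 11.8 kb for the members and 2.16 kb for all genes. Every member had a summit within 5 kb in each of the 3 long lists, against 75.8% of genes in the pooled list, 78.4% in replicate 1 and 79.0% in replicate 2. The long lists are labelled as holding peaks and background, so a summit in them need not be a bound site. In the optimal set, Mmp1 had 1 summit and Mmp2 had 3. Among the basement membrane genes, vkg, LanB1 and trol had 3 each, and LanA and SPARC had 2 each. Genes with a window over 20 kb held a summit more often than those with a shorter one: with a window of 12.5 to 20 kb it was 2 of 5 members (LanB1 and SPARC) against 56.5% of genes, from there to 40 kb it was 3 of 3 (Mmp1, vkg and LanA) against 69.7%, and above that it was 2 of 2 (Mmp2 and trol) against 68.2%.

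**Figure D1:**
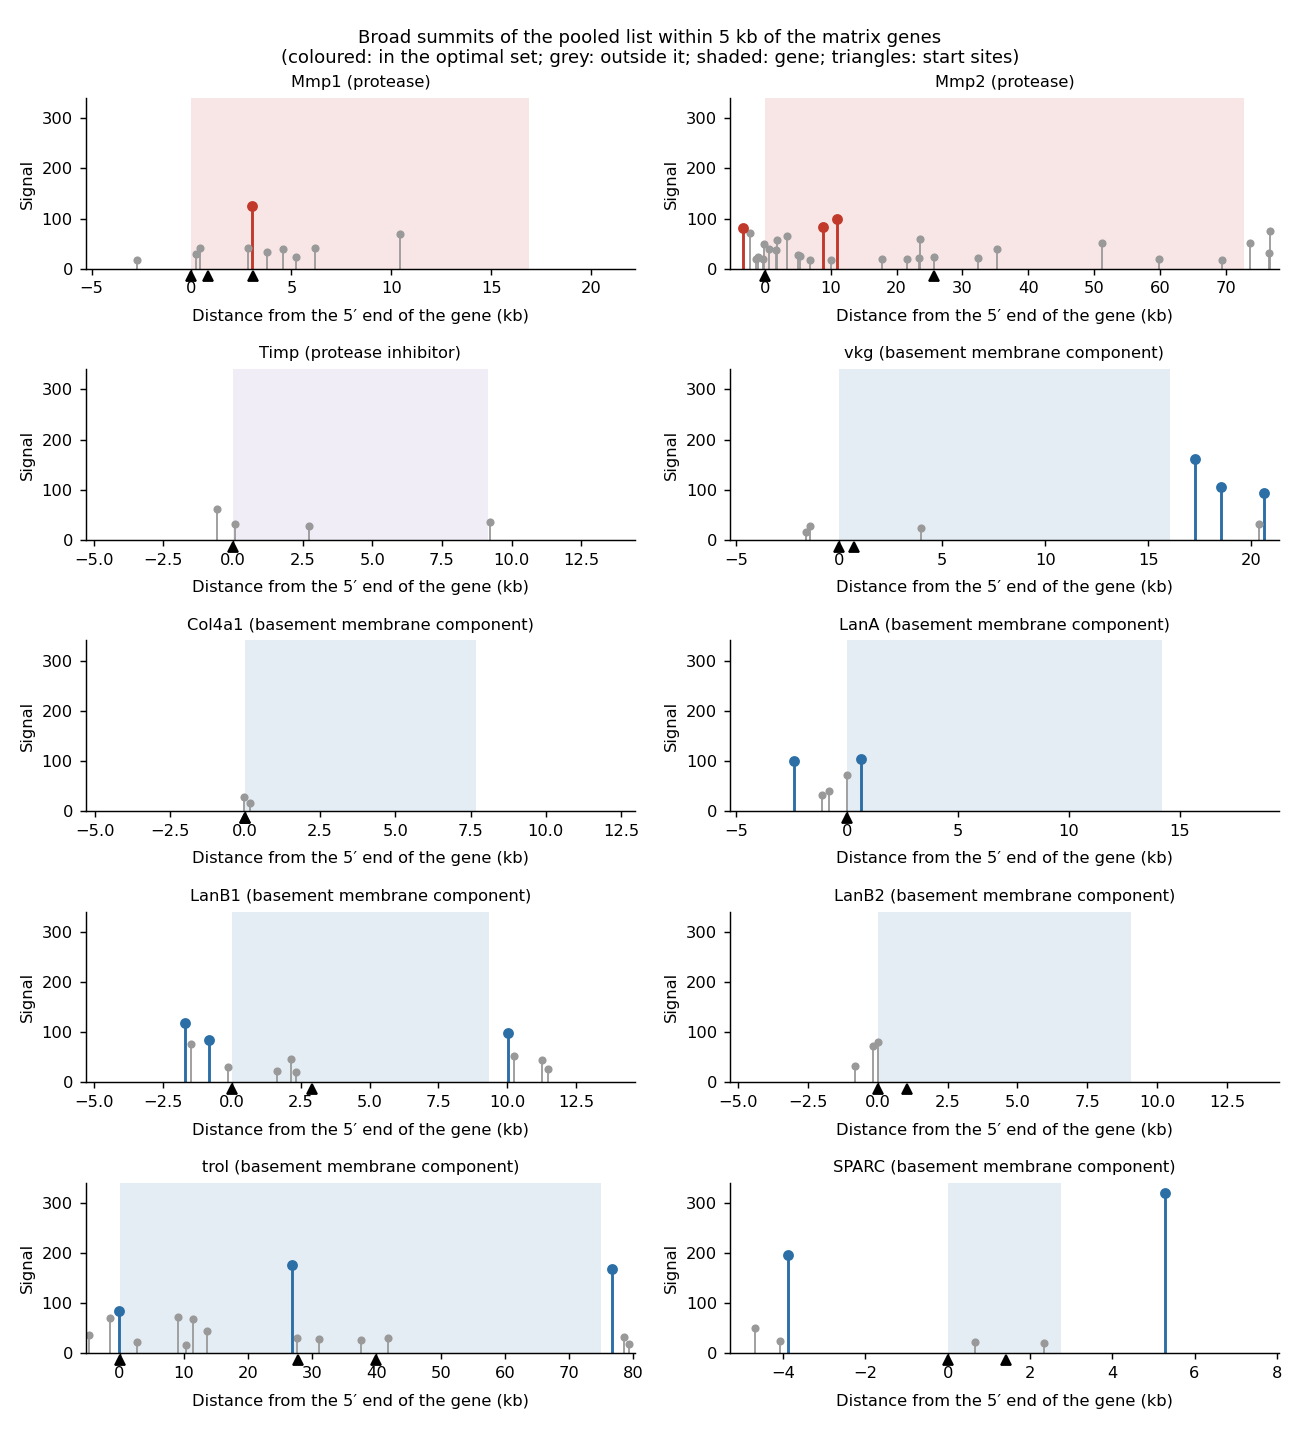
Summits of the pooled list within 5 kb of each gene, with distance from the 5′ end of the gene in kb on the x axis and the authors' signal on the y axis. Coloured points are in the optimal set, grey points are not, shading marks the gene and triangles mark annotated start sites. The summit of Mmp1 (126) stands at an internal start site, while the optimal-set summits of vkg and SPARC all lie outside those genes.

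Most of these summits belonged to positions that a neighbouring gene also claims. The nearest annotated start site was the member's own for 7 of the 17 summits, and it was another gene's for 10. Only 5 summits lay inside a member, with 6 upstream and 6 downstream. Each summit lay within 5 kb of 1 to 5 protein-coding genes, with a median of 2.00, which is also the median over the set. For 5 summits the member was the only such gene. Of the 17, 9 lay within 500 bp of a start site of some gene (40.7% of the set did), 7 were intronic (38.9%) and 1 was intergenic (16.4%). None of the 17 lay in a coding exon (0.256% of the set did), a 5′ UTR (0.739%), a 3′ UTR (0.859%) or another exon (2.13%), where a summit close to a start site counts there first. Their median signal was 103, against 137 over the whole set, and 12 of 17 were below that median. A signal of 200 or more was found for 1 of the 17, against 29.0% of the set. The signal is the authors' own peak value and its scale is not stated, so it ranks peaks within a list.

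Sequences are shown for 6 summits, chosen to stand for some of the kinds of position found. These are introns of members, flanks held by neighbours, and the upstream side of LanB2. There a pooled summit of 73.0 outside the set lay 184 bp from the start site. No summit of Mmp1 or Mmp2 is shown, and no set summit at a member's own start site. Each is the plus strand of dm6 from 50 bp before to 50 bp after the summit, read from the NCBI reference genome. Capitals mark matches to any of the 7 motifs described further on.
trol, intron, chrX:2518468-2518568: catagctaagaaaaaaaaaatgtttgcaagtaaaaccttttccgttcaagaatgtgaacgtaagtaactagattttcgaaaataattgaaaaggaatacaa
LanA, intron, chr3L:6217355-6217455: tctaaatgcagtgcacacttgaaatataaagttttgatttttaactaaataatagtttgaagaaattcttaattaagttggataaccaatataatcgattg
LanB1, 5′ flank inside Cdc14, chr2L:7809685-7809785: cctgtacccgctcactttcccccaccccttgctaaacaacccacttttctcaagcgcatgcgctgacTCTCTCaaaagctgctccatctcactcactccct
LanB1, 3′ flank inside CG7115, chr2L:7821408-7821508: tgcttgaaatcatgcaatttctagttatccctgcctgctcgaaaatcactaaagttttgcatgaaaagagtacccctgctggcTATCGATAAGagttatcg
LanB2, upstream, chr3L:9614680-9614780: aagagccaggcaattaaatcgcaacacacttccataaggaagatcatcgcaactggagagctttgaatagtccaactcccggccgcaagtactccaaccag
SPARC, 3′ flank at ball, chr3R:26866675-26866775: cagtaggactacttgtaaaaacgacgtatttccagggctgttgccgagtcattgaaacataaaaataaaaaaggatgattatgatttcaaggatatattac

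Mmp1 (2R, 24671294 to 24688184, minus strand), which encodes a matrix metalloproteinase, had the highest signal of any member at an own start site. The summit at 24685153 lay 63 bp upstream of the most internal of its 3 annotated start sites, inside the gene. Its signal was 126 in the pooled list (rank 3747 of the set), 76.2 in replicate 1 and 50.5 in replicate 2. The summits of the replicates lay 2 and 0 bp from it. At the other two start sites of Mmp1 the highest pooled signal within 500 bp was 41.5, and it was outside the optimal set. Replicate 1 gave 20.5 and 14.3 there and replicate 2 gave 30.6 at both. The pooled list and replicate 2 each have 1 summit that lies within reach of both start sites. The next strongest pooled summit of Mmp1 was an intronic one of 68.9 (22.8 in replicate 1 and 36.8 in replicate 2).

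Mmp2 (2R, 9611139 to 9683858, minus strand), which encodes the other matrix metalloproteinase, had its set summits away from its start sites. The strongest was intronic, 10997 bp into the gene from the upstream start site, with 99.0 in the pooled list, 41.8 in replicate 1 and 52.8 in replicate 2. A second intronic summit lay 8930 bp in, with 84.1 in the pooled list. It had 58.0 in replicate 1 and 28.0 in replicate 2, the widest log2 ratio between replicates (1.05) among the 16 set summits near members that both replicates matched. The third lay 3206 bp upstream, in intergenic sequence shared with Uba1, the ubiquitin-activating enzyme gene, with 81.0, 46.7 and 38.3 in the same order. All 3 summits of Mmp2 thus ranked in the lower part of the set, at 5171, 6270 and 6532. At its upstream start site the pooled signal was 50.2, 34 bp away, and at the internal one it was 24.3, both outside the set.

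Timp (3R, 10203875 to 10213007, minus strand) lies within Syn, the synapsin gene, on the opposite strand. It had no summit in the optimal set. The pooled list held 4 summits in its window, the strongest 589 bp upstream of its start site with 62.2 (rank 8872), 37.8 in replicate 1 and 24.3 in replicate 2. This was the only one of the 4 with a match within 100 bp in both replicates.

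The collagen IV genes vkg (2L, 5012144 to 5028191, minus strand) and Col4a1 (2L, 5029609 to 5037279, plus strand) encode the chains of the one collagen IV of Drosophila and stand head to head. Their shared promoter region held no summit of the set. The pooled list had a summit of 28.2 at 38 bp upstream of Col4a1 and one of 16.9 inside it, at ranks 18723 and 29037. For the first, the list of replicate 1 had 23.6 and replicate 2 had no summit within 100 bp. No list had a summit within 500 bp of a start site of vkg. The 3 set summits counted for vkg all lay past its 3′ end. One of 162 (69.5 in replicate 1, 93.6 in replicate 2) stood 25 bp from the start site of SelT. One of 106 (63.4 and 46.1) stood 30 bp from a start site of Rtnl1, a reticulon gene, and one of 93.2 (56.9 and 37.6) in an intron of Rtnl1. The distance from these summits to the nearest start site of vkg was 16498 to 19861 bp.

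The laminin chain genes differed in where their summits stood. LanA (3L, 6203831 to 6218022, minus strand), the alpha chain gene, had an intronic summit 617 bp downstream of its only start site, with 103 in the pooled list, 49.1 in replicate 1 and 58.5 in replicate 2. A second summit of 100 (42.6 and 55.4) lay 2408 bp upstream, 148 bp from the start site of CG33946. At the start site of LanA itself a summit of 71.3 (55.4 and 24.0) lay 7 bp away, outside the set. LanB1 (2L, 7811438 to 7820771, plus strand), the beta chain gene, had 2 set summits upstream, 1703 and 821 bp from its start site. Both lay inside Cdc14, a phosphatase gene that runs the other way, with pooled signals of 119 and 84.2. The first had 69.2 in replicate 2 and no match within 100 bp in replicate 1. The strongest replicate 1 summit within 200 bp was 153 bp away with 56.9. That one lay nearer, at 68 bp, to another pooled summit, of 76.3 and outside the set. The second set summit had 48.5 in replicate 1 and 34.1 in replicate 2, and lay 86 bp from a start site of Cdc14. A summit of 98.9 (54.4 and 40.4) past the 3′ end lay 77 bp from the start site of CG7115. LanB2 (3L, 9614914 to 9623980, plus strand), the gamma chain gene, had a pooled summit of 79.6 at 19 bp downstream of its start site. This was 32 places past the end of the optimal set, whose lowest signal was 80.0. Replicate 1 had 55.5 within 500 bp of that start site, and replicate 2 had 26.1, on a summit 185 bp upstream.

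trol (X, 2470460 to 2545427, minus strand), the perlecan gene, had the strongest set summit inside any member. It lay 871 bp upstream of the second of 3 start sites, in an intron of the longer transcripts, with 177 in the pooled list (rank 2327), 86.6 in replicate 1 and 90.2 in replicate 2. Its furthest upstream start site had a set summit of 85.4 at 37 bp (44.3 and 37.3). A summit of 169 (86.2 and 81.7) past the 3′ end was in an intron of boi, a Hedgehog co-receptor gene. SPARC (3R, 26869238 to 26871995, minus strand) encodes a collagen-binding glycoprotein and is the shortest member at 2.76 kb. The highest signal of the 17 was counted for it, 320 in the pooled list (rank 942), 183 in replicate 1 and 125 in replicate 2. That summit stood 82 bp from the start site of ball, a histone kinase gene that is divergent from His2Av. The other, of 195 (94.5 in both replicates), stood 20 bp from the start site of ms(3)K81. The nearest start site of SPARC was 3842 and 3877 bp away. Near its own start sites the optimal, pooled and replicate 1 lists had no summit within 500 bp, and replicate 2 had one of 13.0.

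At start sites the 10 genes were compared list by list. A set summit within 500 bp of an own start site was found for 2 of 10, Mmp1 and trol, against 20.8% of protein-coding genes. Both of these members have 3 annotated start sites, and no share in this comparison was matched for the number of start sites. In the pooled list, which holds 30000 entries labelled as peaks and background, it was 8 of 10 against 41.1%. In replicate 1 it was 7 of 10 against 43.6%, and in replicate 2 it was 8 of 10 against 42.5%. The replicate lists carry the same label, so these counts do not show that the start sites are bound. In the pooled list vkg and SPARC were the exceptions. The pooled signals at these 8 genes ran from 28.2 at Col4a1 to 126 at Mmp1, when the strongest start site of each gene was taken.

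**Figure D2:**
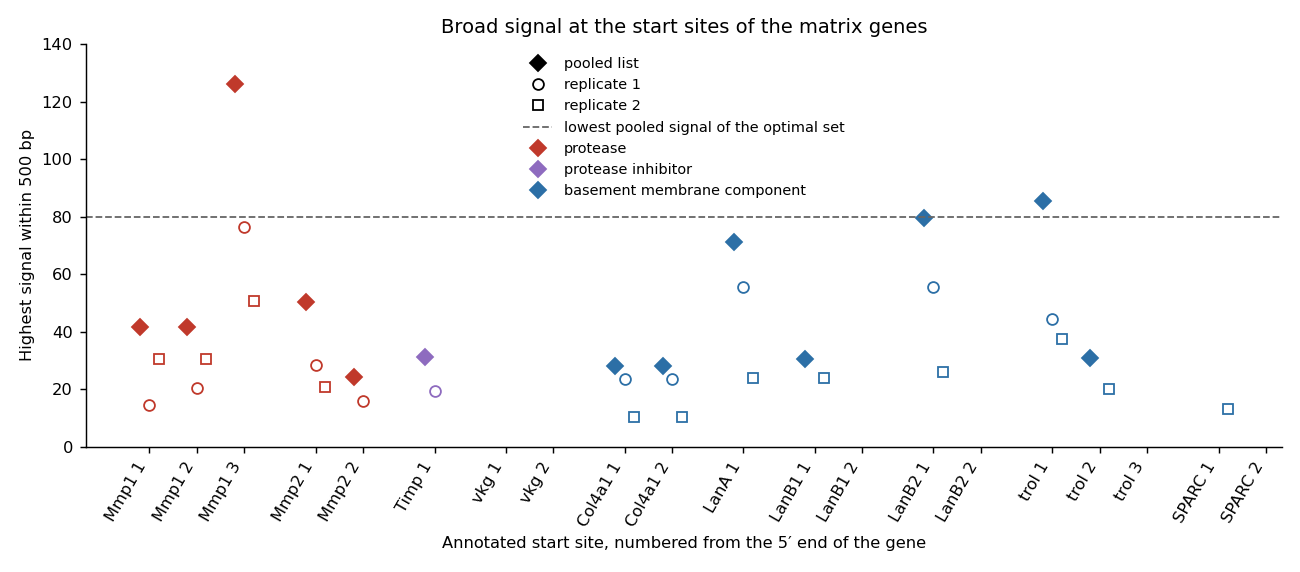
Highest signal within 500 bp of each annotated start site, numbered from the 5′ end of the gene, in the pooled list and in each replicate. The pooled values of Mmp1 (126) and trol (85.4) are above the lowest signal of the optimal set, 80.0, and that of LanB2 (79.6) is just below it.

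Proteases and basement membrane components were then set side by side over their windows. The 2 protease genes had 4 set summits in 110 kb, which is 0.365 per 10 kb, and the 7 basement membrane genes had 13 in 195 kb, which is 0.665 per 10 kb. The 7 chromosome arms as a whole had 0.482 per 10 kb. When the strongest peaks of replicate 2 alone took the place of the set, the values were 0.365 for the proteases and 0.460 for the basement membrane genes, and the difference shrank to -0.0955 per 10 kb, against -0.300 with the set. Inside the gene bodies the order was the other way round, with 3 summits and 0.335 per 10 kb for the proteases and 2 summits and 0.149 per 10 kb for the basement membrane genes. Both were below the 0.468 per 10 kb in the bodies of all protein-coding genes. In the flanks the proteases had 1 summit in 20 kb, which is 0.50 per 10 kb, and the basement membrane genes had 11 in 61.4 kb, which is 1.79 per 10 kb. Flanks of all protein-coding genes had 0.883 per 10 kb, but that value leaves out the bodies of other genes, which the flanks of the members can include. A median of 91.6 was found for the set signals near the proteases, against 106 near the basement membrane genes, and the highest were 126 and 320. The nearest start site was the gene's own for 4 of 4 summits of the proteases, and for 3 of 13 of the basement membrane genes. With 2 genes against 7 and summits that share neighbours, no test was made of these differences.

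The long lists, which are labelled as holding peaks and background, gave another order for the whole windows. In the pooled list the proteases had 39 summits, 3.56 per 10 kb, and the basement membrane genes 48, 2.46 per 10 kb. The proteases had 3.38 per 10 kb in replicate 1 and 3.65 in replicate 2, against 2.30 in each for the basement membrane genes. The optimal set held 10.3% of the pooled summits near the proteases, against 27.1% near the basement membrane genes and 22.1% of all pooled summits. A match in both replicates was found for 38.5% of the pooled summits near the proteases, 60.4% near the basement membrane genes and 52.4% over all. Mmp2 alone had 29 pooled summits, with a median signal of 30.8, and 9 of them matched in both replicates. trol, of about the same length, had 16 with a median of 35.4, of which 8 matched. By gene, the set held 0.372 and 0.363 summits per 10 kb at Mmp1 and Mmp2, and 0.353 at trol. The highest were 1.57 at SPARC, 1.55 at LanB1 and 1.15 at vkg, the genes whose set summits all lay in the flanks.

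**Figure D3:**
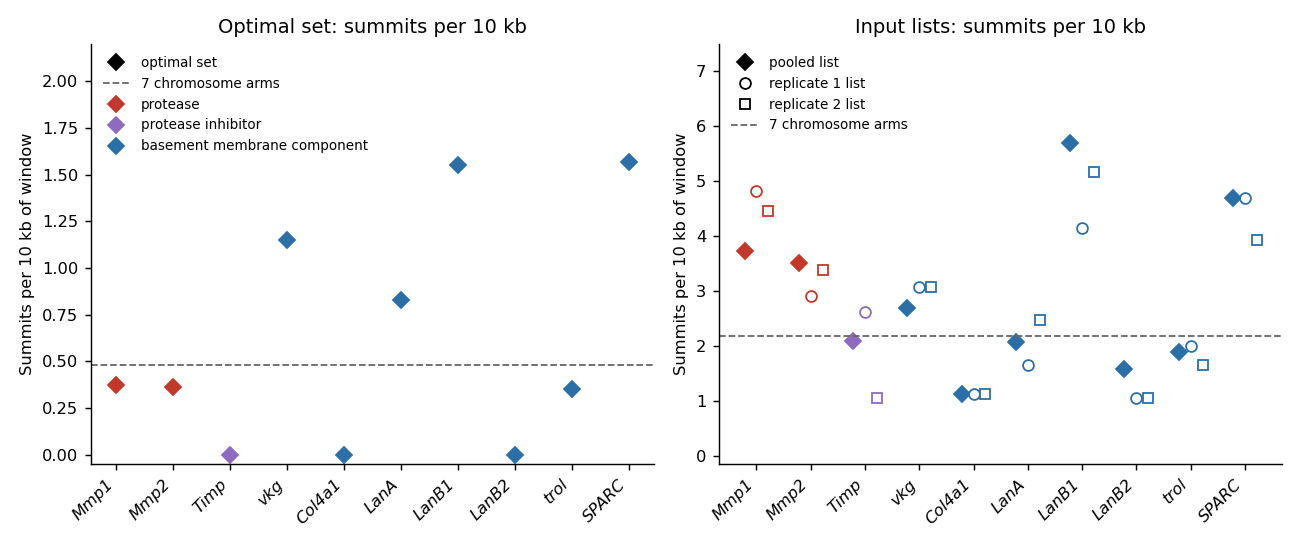
Summits per 10 kb of window for each gene in the optimal set (left) and in the pooled and replicate lists (right), with the level over the 7 chromosome arms as a dashed line. In the optimal set Mmp1 (0.372) and Mmp2 (0.363) are below the arms (0.482), and in the pooled and replicate lists both are above them. The pooled and replicate lists are labelled as holding peaks and background.

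The replicates were compared at the 17 set summits. A summit within 100 bp was present in both replicates for 16 of 17, against 93.2% of the set, which passed through the reproducibility step. The exception was the upstream summit of LanB1. The log2 ratio of replicate 1 to replicate 2 had a median of 0.27 with an SD of 0.43 over these 16, and a range of -0.43 to 1.05, against a median of 0.02 and an SD of 0.52 over the set. The signal was higher in replicate 1 for 11 of the 16, which is 68.8%, against 51.6% of the matched summits of the set. These 11 include a summit counted for SPARC that is level as rounded, with 94.5 in both replicates and a log2 ratio of 0.00. Signals of the replicates are each on the scale of their own list, so this ratio does not measure a difference in binding.

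**Figure D4:**
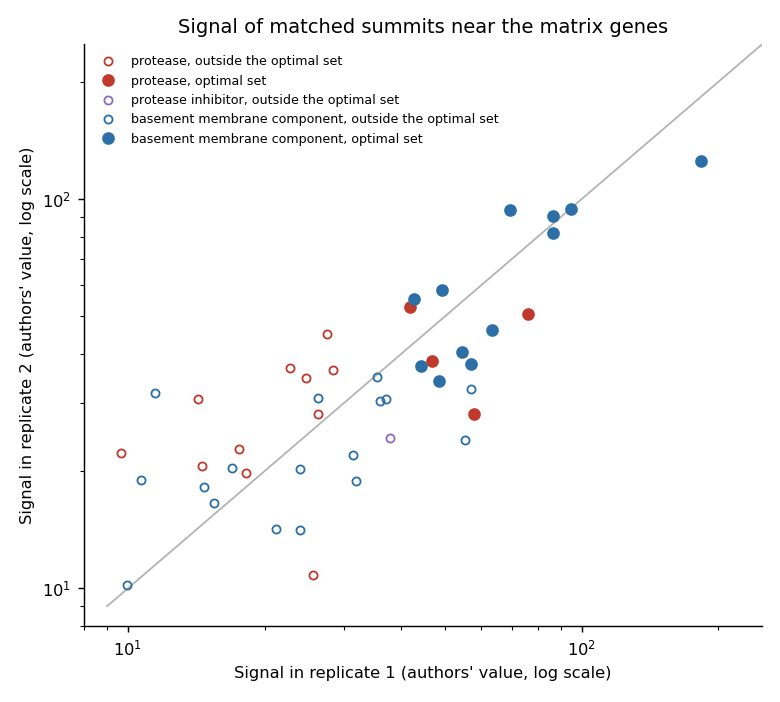
Signal of replicate 1 against replicate 2 on log axes for summits near the matrix genes that were matched within 100 bp in both lists, with the line of equal signal. Filled points are in the optimal set and open points are not. The highest point, at 183 and 125, is the summit counted for SPARC.

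The sequence within 50 bp of the summits was searched for 7 short motifs on both strands. They were TGANTCA of AP-1, GATAAG of GATA factors, CATTCC of Scalloped, TATCGAT of DREF, GAGAGA of the GAGA factor, the nuclear receptor element AGGTCA, and the E-box CACGTG. Of the 17 summits 2 held any of them, against 22.0% of the set. Both were in the flanks of LanB1 and are among the sequences shown above. The upstream one held GAGAGA, present at 5.37% of the set. The downstream one held overlapping matches to GATAAG and TATCGAT, present at 7.08% and 3.23% of the set. The other four were found at 0 of 17 summits, and at 0.829% to 3.66% of the set. Within 100 bp of the summit, 8 of 17 held at least one motif, against 40.7% of the set. TGANTCA was then at 3 of 17 (4.87% of the set), TATCGAT at 3 (5.83%) and GAGAGA at 2 (12.9%). GATAAG (13.3%), CATTCC (7.11%) and AGGTCA (3.51%) were at 1 each, and CACGTG (2.06%) was at 0. Median GC content within 50 bp was 37.6% at the 17 summits and 36.6% over the set. A match is a description of the letters in the window and not evidence that a factor binds there.

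Other genes of the matrix, of its receptors and of linked adhesion and protease functions were taken from a list of 36, all matched in the annotation. They are called other matrix genes here, though the list also holds genes such as rhea, Ilk, parvin and Fas3. A set summit lay within 5 kb of 29 of them (80.6%), against 49.9% of protein-coding genes, and within 500 bp of a start site for 12, against 20.8%. Genes with windows over 20 kb held a summit more often, as given above, and gene length and the number of start sites were not matched here. The 36 genes had 89 summits, 0.703 per 10 kb of window, with a median signal of 124. The highest signal was 772 (387 in replicate 1 and 359 in replicate 2), 1990 bp upstream of AdamTS-B, a protease gene of the ADAMTS family, and 1362 bp from the start site of CG3149. Next came an intronic summit of 564 (319 and 250) in mew, an integrin alpha subunit gene, which held 6 summits in all. A summit of 527 (258 and 265) lay 4916 bp upstream of stl, another ADAMTS family gene, and 3359 bp from the start site of CycB. dlp, a glypican gene, had the most summits, 11, with a maximum of 463 (250 and 234) in an intron. Tango1, needed for collagen export from the endoplasmic reticulum, had a summit of 450 (223 and 233) that lay 201 bp from the start site of CG31635. The protease gene kuz, of the ADAM family, had an intronic summit of 405 (195 and 208), and Dg, the dystroglycan gene, one of 278 (152 and 133). The integrin gene if had one of 268 (124 and 145) that lay 26 bp from the start site of goe. No summit of the 10 genes reached the signals of the first 6 of these. The 7 genes with no set summit included the laminin alpha gene wb, at 65.2 kb among the longer ones, which was picked out after its value was seen.

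**Figure D5:**
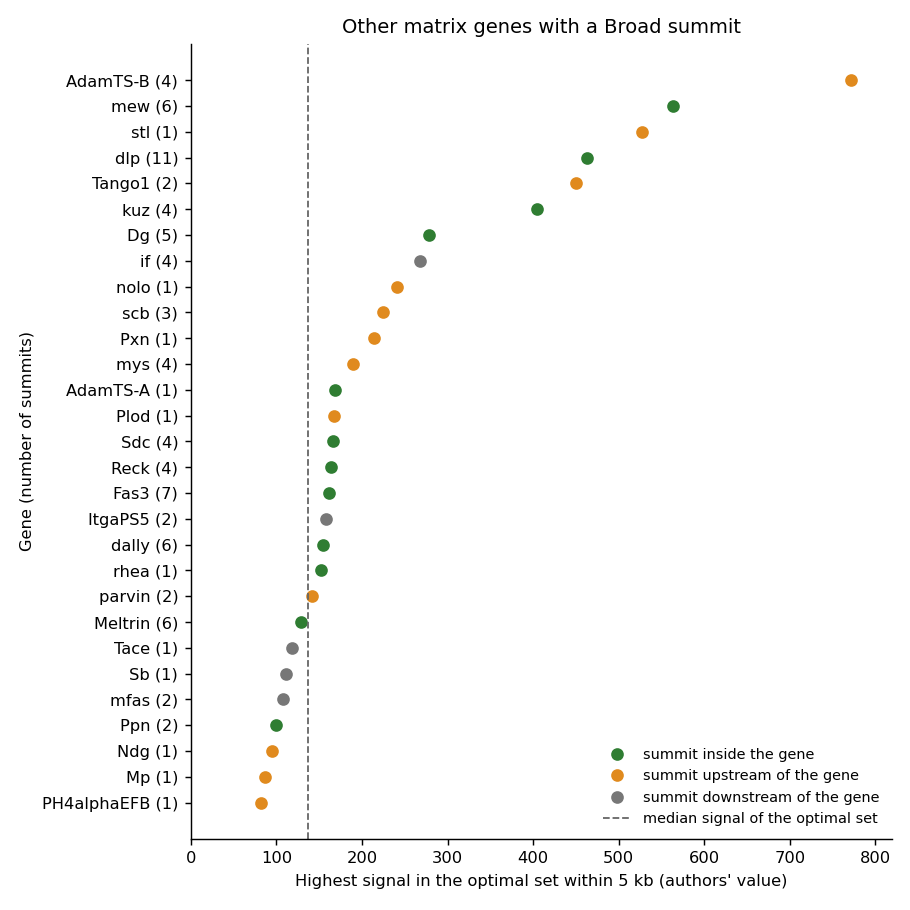
Highest optimal-set signal within 5 kb of each of the 29 other matrix genes with a summit, with the number of summits in brackets and colour for the place of that summit relative to the gene. AdamTS-B (772), mew (564) and stl (527) are highest, and the dashed line is the median signal of the set, 137.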

How the data were processed

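Chromatin immunoprecipitation of GFP-tagged Broad was measured in 2 biological replicates of 1 group, with sonicated fragments of 200 to 800 bp, per the labels. Per the deposited README, each long list derives from the alignments of 1 replicate or of both, with 1 further file that also enters the control-normalised signal and is not analysed here. The 3 long lists are labelled as holding peaks and background, and the optimal set derives from them. The sources used here do not name the peak caller, its settings or the cutoff of the reproducibility step. The authors deposited a signal value and a −log10 q value for each peak. The −log10 q value is at its ceiling for 78.9% of the optimal set and was not used further. The dm3 lists were not used here.

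Summits were taken as start plus offset, 1-based on dm6. Genes came from Ensembl release 115 and sequence from the NCBI genome of the same assembly, in which 99.5% of annotated plus-strand start codons read ATG. Shares over all genes use the 7 chromosome arms. Matches between lists allow 100 bp. The counting, matching and motif functions were tested on simulated data. The members, gene lists, motifs and settings were chosen with earlier results of these data known. The other matrix genes described are the 8 with the highest signal. No significance test was made, since there is 1 group and neighbouring genes share summits. The tools were Python 3.11, pandas 2.3.3 and numpy 2.4.6. Depth per replicate is unknown, so no counting interval is given.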

Additional observations from a re-analysis of the deposited data

How the results depend on the processing

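The count near the 10 genes, 17 summits, was 11 with a window of 2 kb, 28 with 10 kb, 5 in gene bodies alone, 7 when each summit went to the gene of its nearest start site, and 5 among peaks at or above the median signal. Near the basement membrane genes these counts were 8, 21, 2, 3 and 5, against 13. Near the proteases they were 7 with 10 kb and 0 among the stronger peaks, against 4, and the other alternatives gave 3 or 4. Summits per 10 kb near the proteases were 0.307 with 2 kb, 0.540 with 10 kb, 0.335 in gene bodies and 0 among stronger peaks. Near the basement membrane genes they were 0.149 in gene bodies and 0.256 among stronger peaks. The difference in summits per 10 kb between proteases and basement membrane genes, an alternative added after the data had been seen, was -0.300 and turned to 0.186 in gene bodies. The highest signal near the basement membrane genes was 177 with 2 kb, in gene bodies or by nearest start site, and 451 with 10 kb. Other matrix genes with a summit numbered 17 of 36 by gene body, against 14.9% of genes, with gene length not matched. By nearest start site they numbered 18 of 36, and no share over all genes was computed for that rule. Summits with any motif numbered 1 of 17 within 25 bp (11.9% of the set) and 8 within 100 bp (40.7%). Members with a summit numbered 6 of 10 with 2 kb (36.5% of genes), 8 with 10 kb (64.6%), 4 in gene bodies (14.9%) and 3 among stronger peaks (35.8%).

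With the strongest 6635 peaks of a single replicate in place of the optimal set, the counts ran from 13 to 18 near the 10 genes, at 7 members for replicate 2 (50.8% of genes) and 8 for replicate 1 (51.4%). Summits per 10 kb near the basement membrane genes ran from 0.460 to 0.716, and the difference from -0.351 to -0.0955. The highest signals, on the scale of each replicate, ran from 52.8 to 76.2 near the proteases and from 125 to 183 near the basement membrane genes. LanB2, with no summit in the optimal set, had 1 among the strongest peaks of replicate 1. Density by nearest start site has no length and was not computed. No paired analysis was possible because there is 1 group and no test. Depth limits are unknown without read counts.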
